A study of Homo sapiens with 9 samples.

Results

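The genes described here encode 8 proteins that nerve terminals use to store and release transmitter: SYT1, SNAP25, STX1A, VAMP2, SYN1, RIMS3, CPLX1 and SV2A. They were picked by symbol from a count table of 27730 gene symbols, and all 8 had reads in every library. All libraries derive from human embryonic stem cells of the line HUES9, kept on mitomycin-C-treated mouse embryonic fibroblasts and used at passages 44 to 46. The cells were differentiated as spin embryoid bodies without FGF2, after a Stemolecule pretreatment, and were later plated on Matrigel. Of the 3 groups, the first was collected at day 1 with no agent. The other 2 were collected at day 13 after daily medium with 10 µM AA147, an activator of ATF6, which is a sensor of the unfolded protein response, or with 10 µM RP22, its inactive analogue. Both compounds were dissolved in DMSO, and libraries with solvent alone were not analysed here, so RP22 is the day 13 control. Each group had 3 libraries, from 3 independent experiments on 1 cell line, and each library held 9223027 to 10118258 reads.

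Transmitter release works through a small machine at the presynaptic membrane. VAMP2 on the vesicle and SNAP25 and STX1A on the plasma membrane are SNARE proteins that zip together and fuse the membranes. SYT1 is the calcium sensor on the vesicle, CPLX1 (complexin 1) clamps and primes the assembled SNAREs, RIMS3 is a short member of the RIM family of the active zone where vesicles dock, SYN1 (synapsin 1) tethers vesicles in the reserve cluster, and SV2A is a vesicle membrane glycoprotein. Several of these proteins also serve hormone release in neuroendocrine cells, and VAMP2 takes part in regulated membrane traffic in many other cells.

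The 8 genes did not share a pattern. SNAP25, CPLX1, RIMS3 and STX1A stood highest in the RP22 libraries: all 4 rose from day 1 to day 13 with RP22, and all 4 were lower with AA147 than with RP22. SYN1 and SV2A were highest at day 1 and fell with both compounds. VAMP2 rose with both compounds to nearly the same level. In AA147 against RP22 at day 13, 5 of 8 genes were lower, 0 were higher and 3 did not pass the test (edgeR's quasi-likelihood test on 14293 genes, Benjamini-Hochberg adjusted p under 0.05). The background of that comparison was broad: 62% of all genes tested passed it, 32.2% as lower and 29.8% as higher. The median log2 fold change of the 8 genes was -1.39, beside -0.03 over all genes.

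The promoters of 6 of the 8 genes were matched by symbol in the RefSeq promoter table (GRCh38.p14, a later build than the GRCh37.p13 that the count table used), with 2 start sites for VAMP2. The 250 bases before the start are printed for SYN1 and SV2A, which were highest at day 1, and for STX1A and RIMS3, which were highest with RP22, because these pairs moved differently. Capitals mark matches on either strand to CAGCACC and GGACAG spaced by 2 bases (a core of RE1, the element bound by the neuronal gene repressor REST), TGACGTCA (the cyclic AMP response element) or GGGCGG (the GC box).
SYN1, chrX:47619858-47620107, minus strand: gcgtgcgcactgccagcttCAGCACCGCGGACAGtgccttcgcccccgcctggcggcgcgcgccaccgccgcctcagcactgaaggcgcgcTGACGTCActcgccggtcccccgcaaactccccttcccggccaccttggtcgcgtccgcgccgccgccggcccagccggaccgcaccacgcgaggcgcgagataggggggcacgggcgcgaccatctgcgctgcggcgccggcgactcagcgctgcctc
SV2A, chr1:149906992-149907241, minus strand: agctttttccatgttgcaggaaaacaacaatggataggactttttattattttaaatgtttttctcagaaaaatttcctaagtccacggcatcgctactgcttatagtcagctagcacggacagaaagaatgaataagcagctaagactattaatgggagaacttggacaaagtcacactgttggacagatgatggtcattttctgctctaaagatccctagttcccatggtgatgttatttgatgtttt
STX1A, chr7:73719670-73719919, minus strand: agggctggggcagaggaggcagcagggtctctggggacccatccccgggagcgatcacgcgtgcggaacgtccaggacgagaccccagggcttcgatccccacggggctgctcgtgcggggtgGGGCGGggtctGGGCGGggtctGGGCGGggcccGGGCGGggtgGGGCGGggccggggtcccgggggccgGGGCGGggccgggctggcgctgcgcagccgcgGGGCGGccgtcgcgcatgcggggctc
RIMS3, chr1:40665683-40665932, minus strand: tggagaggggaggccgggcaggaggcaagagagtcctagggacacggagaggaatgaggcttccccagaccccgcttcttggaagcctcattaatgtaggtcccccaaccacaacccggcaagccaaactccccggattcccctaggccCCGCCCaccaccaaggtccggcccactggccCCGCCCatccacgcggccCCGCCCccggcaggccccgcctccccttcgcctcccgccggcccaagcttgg

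The RE1 letters were found in SYN1 alone among these genes, 231 bases before the start, where they read CAGCACCGCGGACAG. Only 16 of the 35116 promoters in the table, 0.0456%, held a match. TGACGTCA lay 159 bases before the SYN1 start and occurred in 1.65% of promoters. GGGCGG occurred 7 times in STX1A and 3 times in RIMS3, was also present in SYT1 and VAMP2, and occurred in 42.6% of all promoters. The SV2A stretch held no full match to any of the 3, though GGACAG, a piece of RE1 found in 17.2% of promoters, occurred there at 132 and 67 bases before the start. Its GC content was 37.2%, where 8.41% of promoters were lower, against 80.8% in STX1A and a median of 58% over the table. Whether the start used here is the main start of SV2A was not checked, so the contrast holds for this stretch only. TATAAA (10.7% of promoters) and the ER stress response element (CCAAT and CCACG spaced by 9 bases, 0.074%), through which ATF6 acts, were in none of the 7 stretches. A match describes letters only, and its absence says only that they are not in this window.

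Among the membrane SNAREs, SNAP25 had the largest fold change between the 2 day 13 groups. Its 9 libraries held 7, 7 and 6 reads at day 1, then 105, 93 and 124 with RP22, but 5, 4 and 7 with AA147. On a common scale (CPM, counts scaled to a common library size with TMM factors over all 9 libraries) the RP22 libraries lay between 8.47 and 10.4 CPM and every other library was under 1 CPM. Day 1 and AA147 overlapped. The log2 fold change was 3.87 ± 0.244 (SE) for RP22 against day 1 (adjusted p 5.3e-06 in edgeR, n = 3 per group) and -3.82 ± 0.265 for AA147 against RP22 (adjusted p 2.1e-05). The latter is 14.2-fold lower with AA147. For AA147 against day 1, with 16 and 20 reads in all, SNAP25 was under the count filter. Without that filter the log2 fold change was 0.11, with a 95% interval of -1.04 to 1.25, so a difference within that range was not detectable at this depth. The antisense gene SNAP25-AS1 had 0 reads in all libraries.

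STX1A, the plasma membrane syntaxin, moved the same way over a smaller range. The libraries gave 4.55, 6.52 and 5.57 CPM at day 1, 10.4, 12.1 and 10.1 CPM with RP22 and 6.16, 3.86 and 4.54 CPM with AA147. Every RP22 library was above every other library, while day 1 and AA147 overlapped. RP22 exceeded day 1 by a log2 fold change of 0.97 ± 0.196 (adjusted p 0.0023, edgeR), and AA147 was below RP22 by -1.24 ± 0.219 (adjusted p 0.0017). AA147 against day 1 gave -0.19, with a 95% interval of -0.77 to 0.39 and an adjusted p of 0.51 in edgeR. The transcript length implied by its deposited counts and RPKM (reads per length and library size) ranged 1.54-fold between libraries, so its RPKM is less certain than its CPM.

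VAMP2, the vesicle SNARE, differed from its partners. It had 19.1, 17.4 and 17.2 CPM at day 1, 50.7, 45.1 and 45.5 CPM with RP22 and 44.7, 49.4 and 52.9 CPM with AA147. The 6 day 13 libraries overlapped and all lay above day 1. It rose by 1.39 ± 0.0992 on the log2 scale with RP22 (adjusted p 9.2e-06, edgeR) and by 1.45 ± 0.103 with AA147 (adjusted p 9.6e-07). Between the compounds the log2 fold change was -0.02 ± 0.0872, with an interval of -0.22 to 0.18 and an adjusted p of 0.84. Scaling by library totals alone moved the median of all genes to -0.49 and VAMP2 to -0.48, which then passed as lower (adjusted p 0.0011, edgeR); relative to the median gene it kept its place.

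**Figure D1:**
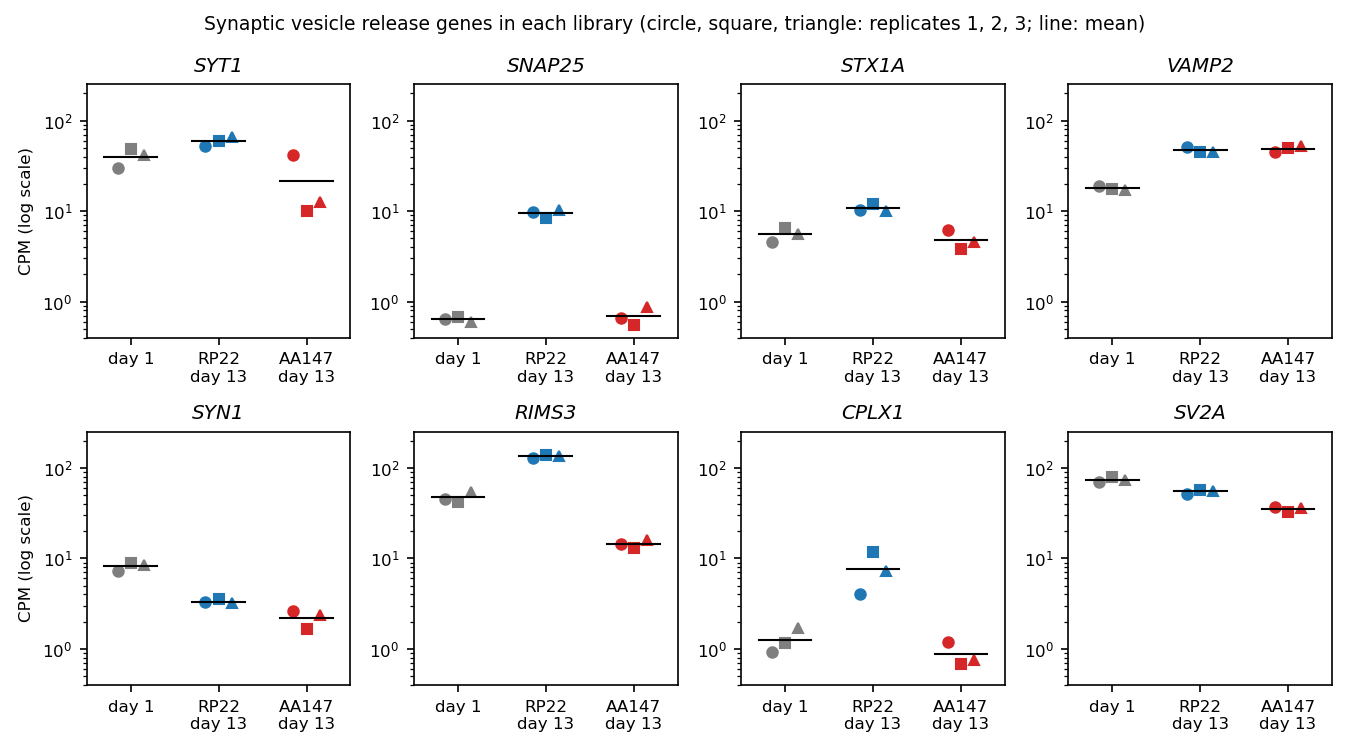
CPM (log axis) of the 8 release genes in each of the 9 libraries, with day 1, RP22 at day 13 and AA147 at day 13 side by side; symbols mark replicates 1 to 3 and the line marks the mean. SNAP25, CPLX1, RIMS3 and STX1A are highest with RP22, VAMP2 is high in both day 13 groups, SYN1 and SV2A are highest at day 1, and 1 of the 3 SYT1 libraries with AA147 stands above the other 2.

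SYT1, the calcium sensor, was the gene with the most uneven replicates. It had 30.3, 48.3 and 41.3 CPM at day 1 and 52.7, 58.9 and 66.3 CPM with RP22. With AA147 it had 41.4, 9.93 and 12.6 CPM, and replicate 1 alone supplied 64.8% of the 488 AA147 reads. Thus the RP22 and AA147 libraries did not overlap, but replicate 1 with AA147 lay among the day 1 libraries. SYT1 rose with RP22 by 0.57 ± 0.171 on the log2 scale (adjusted p 0.018, edgeR). That call was lost without day 1 replicate 3 (adjusted p 0.052, edgeR) or without RP22 replicate 3 (adjusted p 0.06). AA147 against RP22 gave -1.55 ± 0.569, with an interval of -2.99 to -0.1 and an adjusted p of 0.063 in edgeR, which missed the threshold. Without AA147 replicate 1 the value was -2.47 (adjusted p 4e-05, edgeR). Against day 1, AA147 gave -0.90 ± 0.568 (adjusted p 0.19), and -1.81 without that library (adjusted p 0.00013, edgeR). Other neuronal genes differed between the AA147 libraries too. Of 11 neuron markers other than TUBB3, 7 were highest in AA147 replicate 1, all on few reads (GAP43 had 18, 2 and 4), while the sum of the 11 was 78.1, 83.6 and 85.3 CPM. The release pathway genes SYP (8, 2 and 4 reads), DNM1 (95, 32 and 51) and SYT11 (142, 84 and 73), named after their values were seen, were also highest in that library. Their part in the SYT1 value was not tested.

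CPLX1, the SNARE-binding complexin, had few reads at day 1 (10, 12 and 17) and with AA147 (9, 5 and 6). RP22 libraries held 43, 128 and 87 reads, or 4.02, 11.7 and 7.27 CPM, so replicate 1 was the lowest of the 3 and yet above all libraries of the other groups. CPLX1 rose with RP22 by 2.59 ± 0.445 on the log2 scale against day 1 (adjusted p 0.00096, edgeR). With AA147 it was 9.1-fold lower than with RP22, a log2 fold change of -3.19 ± 0.48 (adjusted p 0.00077). AA147 against day 1 was under the count filter. Without the filter it gave -0.53, with an interval of -1.56 to 0.50.

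RIMS3, of the active zone, had the most reads of the 8 genes with RP22 and the smallest adjusted p between the compounds. Day 1 libraries had 45, 42 and 54.5 CPM, RP22 libraries 127, 139 and 135 CPM, and AA147 libraries 14.4, 13.1 and 15.8 CPM. No group overlapped another. RIMS3 rose with RP22 by 1.5 ± 0.109 (log2, adjusted p 9.9e-06, edgeR) and fell with AA147 by 1.71 on the same scale, with an SE of 0.133 (adjusted p 1.8e-06). It was the only 1 of the 8 genes called in opposite directions against day 1. Over the 13410 genes tested in all 3 comparisons, 4.32% were called in opposite directions and also passed between the compounds. The direct comparison put it 9.75-fold lower with AA147, -3.29 ± 0.0924 (adjusted p 1.3e-06).

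SYN1 and SV2A, a vesicle tether and a vesicle membrane protein, were at their highest in the stem cells at day 1. SYN1 had 7.25, 8.95 and 8.36 CPM at day 1, 3.27, 3.55 and 3.18 CPM with RP22 and 2.62, 1.66 and 2.39 CPM with AA147. Both day 13 groups lay below day 1, and the AA147 libraries lay just below the RP22 libraries. SYN1 fell by 1.30 on the log2 scale with RP22 (SE 0.198, adjusted p 0.00049, edgeR) and by 1.87 with AA147 (SE 0.247, adjusted p 7.2e-05). The difference between compounds, -0.66 ± 0.272 with an interval of -1.28 to -0.03, missed the threshold (adjusted p 0.067, edgeR) and passed it without replicate 1 of both groups (-0.80, adjusted p 0.041, edgeR). TIMP1, a metalloproteinase inhibitor gene that lies within an intron of SYN1 on the opposite strand, had 31.4 CPM on average at day 1, 47.9 with RP22 and 81.4 with AA147. No source used here says whether reads were counted by strand. TIMP1 rose with AA147 against day 1 by 1.38 ± 0.156 (log2, adjusted p 3.6e-05, edgeR). Between the compounds TIMP1 did not pass (0.69 ± 0.284, adjusted p 0.078, edgeR), and its RP22 libraries were uneven (68.2, 37.1 and 38.4 CPM). Its part in the SYN1 counts was not tested.

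SV2A had 69.0, 79.1 and 74.0 CPM at day 1, 51.9, 57.0 and 55.7 CPM with RP22 and 36.7, 32.3 and 36.3 CPM with AA147, a stepwise order in which no group overlapped another. It fell by 0.43 on the log2 scale with RP22 (SE 0.085, adjusted p 0.0019, edgeR) and by 1.08 with AA147 (SE 0.0947, adjusted p 4.2e-06). AA147 was lower than RP22 by -0.72 ± 0.0883 (adjusted p 0.00027).

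Against day 1, then, RP22 left 6 of the 8 genes higher and 2 lower, in a comparison where 71.9% of 14558 genes were called (36.6% higher, 35.2% lower). The median log2 fold change of the 8 was 1.18, beside 0.02 over all genes. With AA147, 6 of the 8 passed the count filter, of which VAMP2 was higher, SYN1, RIMS3 and SV2A were lower, and SYT1 and STX1A did not pass, where 79.1% of 13761 genes were called (38.7% higher, 40.4% lower). These comparisons share the day 1 libraries, so their values stand side by side and were not correlated. The libraries of the groups did not overlap for 7 of 8 genes in AA147 against RP22, for 8 of 8 in RP22 against day 1 and for 4 of the 6 tested in AA147 against day 1. Over all genes tested the corresponding shares were 69.9%, 76.9% and 82.4%.

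**Figure D2:**
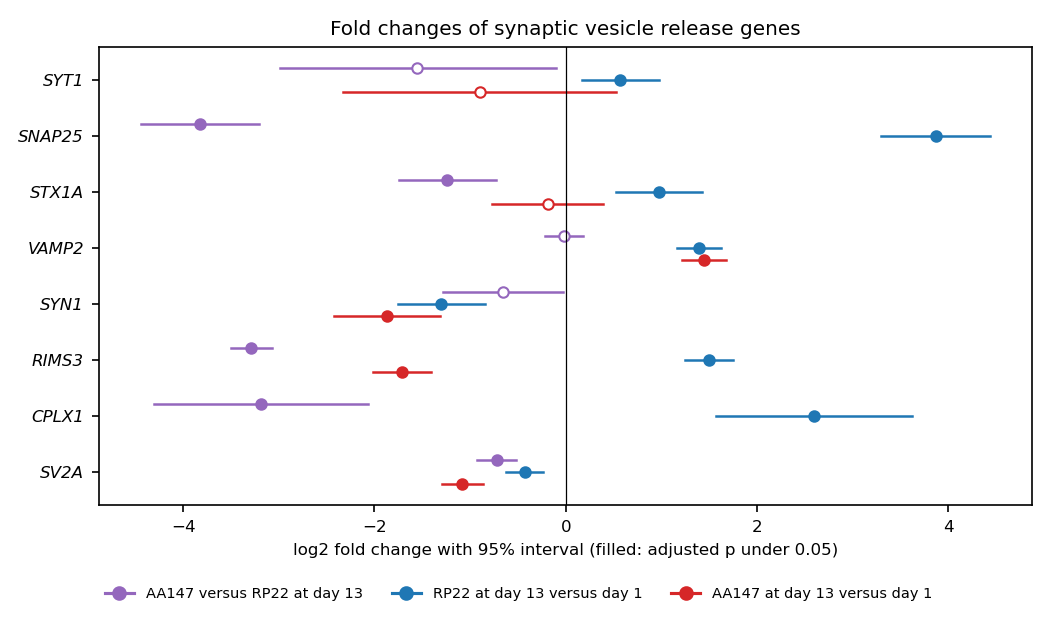
Log2 fold change (point) with its 95% interval (line) for each release gene in the 3 comparisons, where a filled point has an adjusted p under 0.05 in edgeR and SNAP25 and CPLX1 have no point for AA147 against day 1 because they were under the count filter. VAMP2 lies at -0.02 between the compounds, RIMS3 lies on opposite sides of 0 against day 1, and SYT1 has the widest intervals wherever AA147 enters.

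Per length, on the RPKM scale, the order of the 8 genes changed between groups. At day 1 SV2A led with 19.1 ± 1.35 RPKM (SD, n = 3), above SYT1 at 9.13 ± 2.09, VAMP2 at 8.19 ± 0.534 and RIMS3 at 7.06 ± 0.973, each of which overlapped its neighbour in that order. STX1A followed at 3.83 RPKM, SYN1 at 2.77, CPLX1 at 0.628 and SNAP25 at 0.322. With RP22, VAMP2 at 23.1 ± 1.19 and RIMS3 at 21.3 ± 1.65 overlapped at the top, SV2A (15.5) and SYT1 (14.6) overlapped below them, STX1A stood at 8.42, SNAP25 (5.12) and CPLX1 (4.12) overlapped, and SYN1 was last at 1.2 RPKM. With AA147, VAMP2 led alone at 17.4 ± 1.02 RPKM. SV2A (6.75), SYT1 (3.65), STX1A (2.38) and RIMS3 (1.59) formed a chain of overlapping neighbours, and SYN1 (0.558), CPLX1 (0.309) and SNAP25 (0.258) came last, again each overlapping the next.

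Closely related genes did not all follow the release genes. SNAP23, which takes the place of SNAP25 in most cells, had 108, 70.1 and 109 CPM on average at day 1, with RP22 and with AA147. SNAP23 was higher with AA147 than with RP22 (0.56 ± 0.0715, adjusted p 0.00033, edgeR), while SNAP25 was lower, though by library totals alone SNAP23 no longer passed (0.11, adjusted p 0.16, edgeR). VAMP3, the widely expressed relative of VAMP2, had 40.7, 84.8 and 175 CPM and was higher with AA147 by 0.97 ± 0.12 (adjusted p 0.00029, edgeR). VAMP1, the other neuronal form, had 11.8, 11.1 and 12.9 CPM and passed no comparison.

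STX4, a plasma membrane syntaxin of most cells, had 29.0, 19.7 and 33.4 CPM in the same order. It was higher with AA147 than with RP22 (0.69 ± 0.151, adjusted p 0.0049, edgeR), where STX1A was lower, but lost that call by library totals (0.24, adjusted p 0.16, edgeR). CPLX2 had 21.5 CPM at day 1, 11.1 with RP22 and 0 reads in all 3 AA147 libraries. With 3 reads over the 3 libraries taken as the limit, CPLX2 was at least 85.2-fold lower with AA147 than with RP22. RIMS4 had 40.1, 12.7 and 1.08 CPM and was lower with AA147 than with RP22 by -3.60 ± 0.329 (adjusted p 7.1e-05). Unlike RIMS3, it also fell from day 1 to RP22, by 1.66 on the log2 scale (adjusted p 1.9e-05, edgeR).

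SYT11, a synaptotagmin that does not bind calcium, had 30.8, 97.8 and 13.1 CPM and differed by -2.97 ± 0.239 between the compounds (adjusted p 9.5e-05, edgeR). SYN2 had 5.50, 3.02 and 1.75 CPM, stepwise like SYN1, and was lower with AA147 than with RP22 by -0.86 ± 0.255 (adjusted p 0.019, edgeR). TIMP4, which lies within SYN2 on the opposite strand, had 73, 15 and 3 reads in the same groups, and its part in the SYN2 counts was not tested. It was added after its values were seen. TIMP3, placed likewise within the synapsin gene SYN3, had 4.55, 444 and 1830 CPM and was higher with AA147 than with RP22 by 1.96 ± 0.151 (adjusted p 3.5e-05, edgeR). SV2B was under the count filter, with 14 reads at day 1, 77 with RP22 and 1 with AA147. Its RP22 to AA147 ratio was 52.2, with a counting interval of 9.1 to 2090. RP22 replicate 1 held 57 of the 77 reads, and without it the ratio was 19.9, with an interval of 3.18 to 824. How reads shared by related genes were assigned is stated in no source used here.

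**Figure D3:**
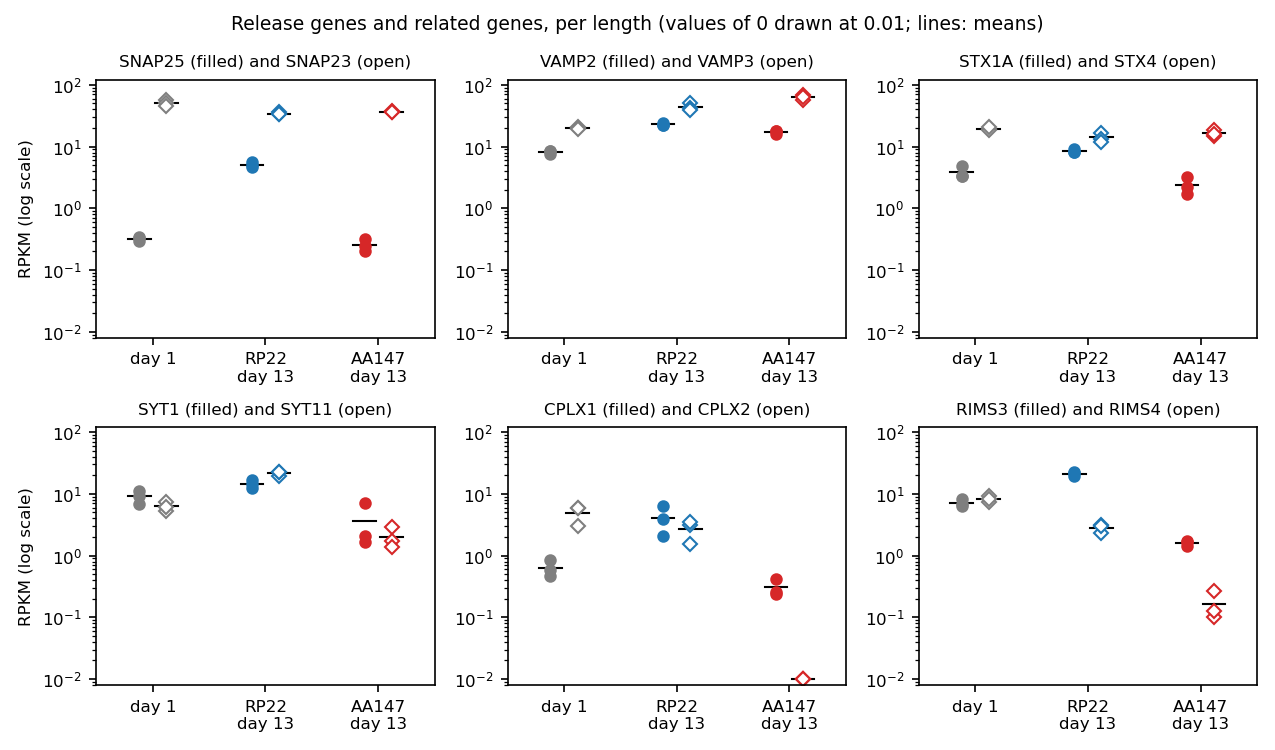
RPKM (log axis, values of 0 drawn at 0.01) of 6 release genes (filled) and a related gene of each (open) in the 9 libraries, with the group mean as a line. SNAP23 lies above SNAP25 in every library, the 3 AA147 libraries of CPLX2 are at 0, and RPKM, unlike CPM here, carries no TMM scaling.

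The wider release pathway was read through lists of other genes, counted with the same test. In AA147 against RP22, 32.2% of all genes tested were lower and 29.8% higher. For AA147 against RP22, 10 of 11 tested synaptotagmins and related calcium sensors were lower and 0 higher (median log2 fold change -2.69). The most abundant, by mean over the 6 libraries, were SYT11, SYT4 and SYT7. SYT4 had 61.1 CPM with RP22 and 3 reads in all with AA147, a ratio of 466 with a counting interval of 159 to 2260, and SYT7, a slow calcium sensor, had 35.5 and 8.73 CPM (-2.10 ± 0.126, adjusted p 1.1e-05, edgeR).

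Of the active zone scaffold genes, 8 of 12 were lower with AA147 and 3 higher (median -1.97). Over all genes tested, 32.2% were lower and 29.8% higher, so the higher calls lie near that share. The 3 higher were its most abundant members: the scaffold gene ERC1 (0.67), the liprin PPFIA1 (0.23) and RIMS2 (0.72), which encodes a long RIM protein. None of them kept that call by library totals alone, and PPFIA1 turned (-0.23, adjusted p 0.031, edgeR). RIMS2 had 28.1 CPM with RP22 and 48.9 CPM with AA147, so RIMS2 and RIMS3 differed in direction on the main scale.

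Other vesicle membrane and cluster genes were lower in 7 of 9 tested and higher in 1 (median -1.63), where 32.2% of all genes tested were lower and 29.8% higher. SYNGR1, the vesicle protein synaptogyrin 1, had 39.2 CPM with RP22 and 8.54 CPM with AA147 (-2.27 ± 0.225, adjusted p 0.00014, edgeR), SYPL1, a synaptophysin relative found in many tissues, was higher (0.58, with that call lost by library totals), and RAB3B, a vesicle GTPase, did not pass (0.26, adjusted p 0.084). Calcium channel subunits were lower in 5 of 6 and higher in 1 (median -3.59). The pore subunit CACNA1A had 637 reads with RP22 and 2 with AA147, a ratio of 216 with a counting interval of 59.5 to 1790. The auxiliary subunit CACNA2D2 had 22.2 and 1.41 CPM (-4.05 ± 0.266, adjusted p 1.7e-05), and its relative CACNA2D1 was the 1 that was higher (0.29, adjusted p 0.046, edgeR), a direction that turned by library totals (-0.16).

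Vesicle endocytosis genes were lower in 8 of 10 and higher in 2 (median -2.29), where 32.2% of all genes tested were lower and 29.8% higher. The 2 higher were PICALM (0.91) and DNM2 (0.46), the clathrin adaptor and the dynamin of most cell types. Of these, PICALM alone kept its call by library totals. BIN1, an amphiphysin, was lower (-1.96 ± 0.131, adjusted p 1.8e-05, edgeR). Neuronal SNAREs and SNARE regulators were mixed, with 6 of 12 lower and 2 higher (median -0.10 beside -0.03 over all genes). The chaperone DNAJC5 was higher (0.42, but -0.03 by library totals), the priming factor UNC13B lower (-0.48, adjusted p 0.029), and NSF, the ATPase that takes SNARE complexes apart in all cells, did not pass (0.10, adjusted p 0.29, edgeR).

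Widely expressed SNAREs went the other way on the main scale, with 14 of 17 higher with AA147, 0 lower and a median of 0.56. On that scale 29.8% of all genes tested were higher and 32.2% lower. By library totals alone 7 were higher and 2 lower, with a median of 0.11 where all genes had -0.49 and 13.3% of them were higher. VAMP3, STX3 (0.95) and STX7 (0.35) led by abundance, and VAMP3 and STX3 kept their calls. Against day 1 the same list had 8 higher and 6 lower with RP22, and 11 higher and 0 lower with AA147 (9 and 5 by library totals, where 28.1% of all genes were higher and 53.9% lower).

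Against day 1 the same neuronal lists gave these counts. With RP22, 3 of 12 tested synaptotagmins and sensors were higher and 4 lower, 5 of 12 scaffold genes were higher and 3 lower, and 4 of 10 endocytosis genes were higher and 2 lower (7 higher without replicate 1 of both groups). With AA147, 0 of 11 synaptotagmins and sensors were higher and 9 lower, 2 of 11 scaffold genes were higher and 5 lower, and 2 of 10 endocytosis genes were higher and 6 lower. Over all genes tested, 36.6% were higher and 35.2% lower with RP22, and 38.7% and 40.4% with AA147, so most of the RP22 list counts lie near that share. That the compounds differ rests on the direct test between them, above.

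**Figure D4:**
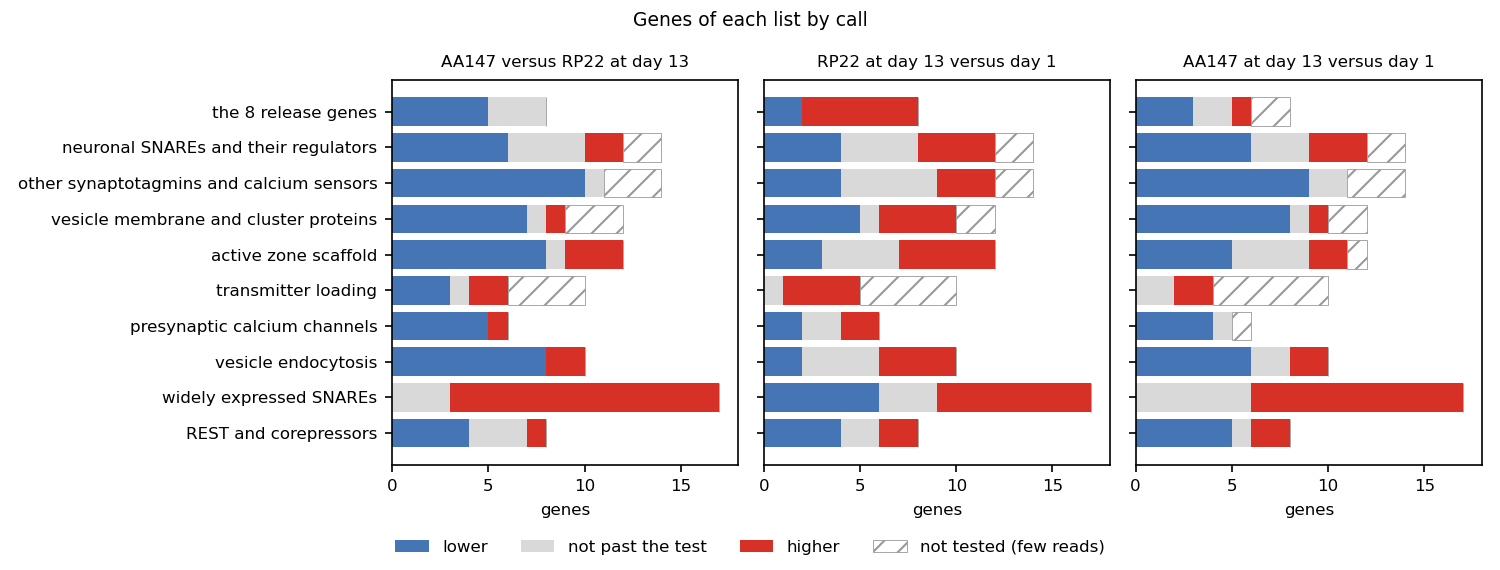
Number of genes of each list that were lower, not past the test, higher or not tested because of few reads, for the 3 comparisons. In AA147 against RP22 the bars of most neuronal lists are mainly lower, while widely expressed SNAREs are 14 of 17 higher. Over all genes tested in that comparison, 32.2% were lower and 29.8% higher.

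Of the transmitter loading genes, 2 of 6 tested were higher with AA147 than with RP22 and 3 lower. Over all genes tested, 29.8% were higher and 32.2% lower. SLC18A3, the vesicular acetylcholine transporter, had 0.0324 CPM at day 1 (1 read), 7.69 CPM with RP22 and 93.5 CPM with AA147, 3.53 ± 0.343 higher with AA147 (log2, adjusted p 0.00032, edgeR). SLC17A6, a vesicular glutamate transporter, had 0 reads at day 1, 659 with RP22 and 1 with AA147. The RP22 to AA147 ratio of SLC17A6 was 447, with a counting interval of 79.9 to 17700. SLC18A2, the vesicular monoamine transporter, did not pass (0.05, adjusted p 0.85).

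REST, which represses neuronal genes outside the nervous system, had 118, 103 and 119 CPM at day 1, with RP22 and with AA147, and did not pass between the compounds (0.13 ± 0.07, adjusted p 0.14, edgeR), though by library totals it was lower with AA147 (-0.33, adjusted p 0.0044, edgeR). REST and its corepressors had 4 of 8 genes lower and 1 higher (7 lower and 0 higher by library totals), where 32.2% of all genes tested were lower on the main scale and 59.7% by library totals. Among the most abundant, KDM1A was lower (-0.58, adjusted p 4e-04) and HDAC2 did not pass (-0.15, adjusted p 0.068, edgeR). Of the 15 genes whose promoters held the RE1 letters, 4 were tested between the compounds. With AA147, 2 of the 4 were lower, where 32.2% of all genes tested were lower. These were the glutamate receptor gene GRIA2 (5.8 CPM with RP22, 0.046 with AA147) and TMEM179 (1.19 and 0 CPM), named here after their values were seen. SYN1 and OGDHL did not pass, and OGDHL had the other sign (0.52, adjusted p 0.08, edgeR).

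Cell type markers were summed by list and did not all move with the release genes. The 12 neuron markers summed to 414 to 544 CPM at day 1, 1720 to 1800 CPM with RP22 and 494 to 547 CPM with AA147. Between the compounds 11 of 12 were lower with AA147 (median -6.45), where 32.2% of all genes tested were lower. TUBB3 was the exception, with 439 CPM with AA147 and 324 CPM with RP22, and it made up most of the AA147 sum. By library totals alone, and without AA147 replicate 1, 0 of the 12 were higher. In RPKM, TUBB3 had 198 with AA147 and 211 with RP22. Without TUBB3 the other 11 summed to 270 to 384 CPM at day 1, 1350 to 1540 with RP22 and 78.1 to 85.3 with AA147. No neuron marker was at 0 reads in a group, but ELAVL4 had 1 read and ELAVL3 had 4 reads over the 3 AA147 libraries, beside 2703 and 1487 with RP22. The neuron markers DCX and STMN2 had 210 and 235 CPM with RP22 and 1.2 and 3.18 CPM with AA147. The 8 release genes summed to 177 to 204 CPM at day 1, 310 to 335 CPM with RP22 and 111 to 148 CPM with AA147.

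The 9 neuroendocrine markers summed to 136 to 184 CPM at day 1, 132 to 215 with RP22 and 37.2 to 54.7 with AA147, with 3 at 0 reads in the AA147 group. Smooth muscle and mesenchyme markers summed to 874 to 937 CPM at day 1, 11700 to 25700 with RP22 and 61500 to 69900 with AA147. Stem cell markers, which check the day 1 label, summed to 6300 to 7130 CPM at day 1, 397 to 682 with RP22 and 126 to 159 with AA147. Neural progenitor markers summed to 1740 to 1830 CPM at day 1, 791 to 1230 with RP22 and 708 to 926 with AA147. NES alone had 695 to 912 CPM with AA147 and so made up most of that sum. Between the compounds 8 of 9 tested progenitor markers were lower with AA147 and 0 higher (median -7.19), where 32.2% of all genes tested were lower. For glia markers the sums were 20.6 to 27.4 CPM at day 1, 89.8 to 125 with RP22 and 304 to 398 with AA147. SLC1A3 (77.4 CPM with RP22, 266 with AA147) and MBP (13.4 and 90.7) made up most of the AA147 sum. Of the 5 glia markers tested between the compounds, 2 were higher with AA147 and 3 lower (median -3.19), where 29.8% of all genes tested were higher and 32.2% lower. In bulk RNA, fewer cells of a type and less RNA per cell cannot be told apart, and the part of cell mixture in these results was not tested. Mouse feeder reads, if present, were not separated from human ones.

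Libraries with the number 1 stood apart within their groups. Over all genes, RP22 replicate 1 differed from replicates 2 and 3 by chi-square values of 28.0 and 26.9 per degree of freedom, against 2.39 between those 2. It also had the highest mesenchyme marker sum (25700 CPM) and the highest neural crest marker sum (908 CPM, beside 437 and 456) of its group. Without replicate 1 of both groups, 7 of the 8 release genes were lower with AA147 and 0 higher. With RP22 replicate 1 alone left out the count stayed at 5 lower, and with AA147 replicate 1 alone left out it was 6. Over all genes, 47.4%, 48.9% and 46.9% of the calls were upward in these refits, in that order, beside 48.1% with all libraries.

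Across the 9 libraries, which fall into 3 groups, the genes were described by their correlation with the mean standardised log2 CPM profile of all 8. RIMS3 (Pearson's r 0.966), STX1A (0.944), CPLX1 (0.922), SYT1 (0.891) and SNAP25 (0.852) followed it, SV2A (0.564) and SYN1 (0.293) less, and VAMP2 (-0.00499) not at all. Between pairs, r was 0.95 for STX1A and CPLX1, 0.94 for SYN1 and SV2A, and -0.94 for VAMP2 and SYN1. These are descriptions over libraries that share their groups. Each of the 8 genes is also part of the mean profile it is set against, which raises its r. Genes outside the lists are not part of it, so the r values of the 2 kinds are not alike. Outside the lists, the 5 genes most like the mean profile were CNTFR (r 0.997), SNCG (0.993), INTS3 (0.989), GPRASP1 (0.989) and LPHN3 (0.986). CNTFR, a subunit of the ciliary neurotrophic factor receptor, had 4.40 CPM at day 1, 47.5 with RP22 and 0.521 with AA147. SNCG, which encodes gamma-synuclein, had 4.89, 26.5 and 1.66 CPM.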

How the data were processed

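The authors deposited a table with an estimated count and an RPKM value (reads per length and library size) for each gene symbol and library, per the file headers. Reads were placed on GRCh37.p13 according to the submitters' processing notes. Aligner and counter: not given in the sources used here. Of 27772 rows, 42 repeated symbols were summed. Counts at the floor of 0.05 were read as 0, and the fractional ones (0.9142% of cells) were rounded. Depth was similar in all libraries, and intervals on few reads cover counting error only.

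Each comparison was fitted on its own 6 libraries with edgeR 4.0.16 (filterByExpr, TMM, robust quasi-likelihood F test, Benjamini-Hochberg over all genes tested). Printed CPM were scaled over all 9 libraries. SE is the log2 fold change over the root of F. On simulated counts for 14293 genes of AA147 against RP22, only 200 genes were changed. Of these, 73% changed 2-fold and 93% changed 4-fold were found, with 5.14% false among calls. The same step gave 69% and 93% for RP22 against day 1 (14558 genes, 8.47% false). For AA147 against day 1 it gave 79% and 97% (13761 genes, 12% false), with false calls above the nominal 5% in both. In the data 62% to 79.1% of genes were called, so these rates describe a setting with far fewer changed genes. DESeq2 1.42.0, limma 3.58.1, other scalings, filters and left-out libraries were alternatives. Nothing says how replicate numbers relate to experiments, so p-values measure the spread between these libraries.

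The members and lists were chosen with earlier results of these data known. Named besides the 8 genes were the 3 most abundant tested genes of each list, close relatives, REST, TIMP1, SNAP25-AS1 and the 5 genes most like the mean profile; cell type markers were named after their values were seen. A few items are not reported here.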

Additional observations from a re-analysis of the deposited data

Results flagged for a closer look

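In 9 of the 94 genes of the pathway lists tested in all 3 comparisons (115 screened), RP22 and AA147 led to opposite calls against day 1, and the direct test between the compounds passed. Over all 13410 genes tested in all 3 comparisons, 4.32% met the same rule. Both day 1 contrasts share their controls. RIMS3 was the 1 release gene among them: AA147 against RP22 -3.29 on the log2 scale, after 1.5 with RP22 and -1.71 with AA147.

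The vesicle fusion factor NAPB (an alpha-SNAP relative) gave -1.11 between the compounds, from 0.44 with RP22 and -0.59 with AA147. SYT4 gave -8.80 on few AA147 reads (3.45 and -5.26), and SYT11 gave -2.97 (1.66 and -1.23). Among vesicle GTPases, RAB3A gave -2.31 (1.06 and -1.17) and RAB3D gave -1.63 (0.52 and -1.02). Active zone genes were RIMS1 with -4.28 (0.61 and -3.59) and BSN, which encodes bassoon, with -2.24 (0.42 and -1.73). The endocytosis adaptor gene SNAP91 gave -5.08 (1.99 and -3.01). All 9 were higher than day 1 with RP22 and lower with AA147.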

How the results depend on the processing

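For the 22 results on single release genes, 396 values under alternatives were computed: 362 kept direction and side of the threshold, 3 lost the call, 27 gained it and 4 turned sign. The 4 concern VAMP2 between the compounds, which was 0.06 with all 9 libraries in 1 fit, 0.04 without AA147 replicate 1, 0.05 without RP22 replicate 1 and 0.1 without replicate 1 of both, all near 0. For AA147 against RP22, 8 of 8 genes were called lower by library totals alone and 8 by limma on log2 RPKM under each of 3 settings; these scalings shift all genes downward with AA147 (median -0.49 by library totals, with 18.2% of calls upward against 48.1%). For AA147 against day 1 the median was -0.48 and 34.3% of calls were upward against 48.9%, and limma without a filter called 7 genes. SYT1 between the compounds was also called by DESeq2 (adjusted p 0.029), voom (0.016) and all 9 libraries in 1 edgeR fit (0.031), while its rise with RP22 was lost in that fit (0.3). Leaving out 1 library at a time gave 7521 to 9447 called genes for AA147 against RP22, 9652 to 10615 for RP22 against day 1 and 10345 to 11038 for AA147 against day 1. With a replicate block the counts were 8674, 10122 and 10816, beside 8865, 10462 and 10882; same-numbered libraries did not deviate together in every pair (correlations of 0.21, 0.16 and 0.08 between the compounds, and -0.07 to 0.06 against day 1), so the numbers were not used as pairs. The cause of these changes was not tested. Genes with few reads, SNAP25 and CPLX1 at day 1 and with AA147, limit what could be detected.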

Other observations

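The 2 transmitter loading genes that were higher with AA147 than with RP22, SLC18A3 and CHAT, share 1 gene locus. CHAT, which makes acetylcholine, had 0 reads at day 1, 12 with RP22 and 62 with AA147. The log2 difference of CHAT between the compounds was 2.81 ± 0.524 (adjusted p 0.0022, edgeR), and its level with AA147 was at least 28.2-fold above day 1, taking 3 reads over the group as the floor. CHAT was named after its values were seen. Its mean of 2.75 CPM with AA147 is low, while SYP, which encodes the vesicle protein synaptophysin, had 16.7 CPM with RP22 and 0.61 CPM with AA147 (-4.81 ± 0.352, adjusted p 2.6e-05, edgeR).

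Some presynaptic genes were already well above 0 in the stem cells and were lowest with AA147. UNC13A, a priming factor, had 43.5 CPM at day 1, 25.0 with RP22 and 0.349 with AA147, so that it fell with both compounds against day 1, by 0.80 on the log2 scale with RP22 (adjusted p 0.0086, edgeR) and by 6.90 with AA147 (adjusted p 7.9e-07). It was likewise chosen after its values were seen. SYP was also picked with its values in view.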
